A study of Capra hircus with 9 samples.

Results

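The genes described here are 8 genes of the extrinsic and intrinsic routes to apoptosis in the goat mammary gland, namely the death ligand gene TNFSF10, the receptor genes FAS and TNFRSF1A, the adaptor genes TRADD and TRAF2, the initiator caspase genes CASP8 and CASP9 and the effector caspase gene CASP6. They were chosen by symbol, with earlier results of these data known. All 8 were found among the 23499 genes of the expression table and passed the filter on low values that left 14701 genes for testing. The table covers 9 healthy Laoshan dairy goats of the third parity with a mean age of 4 years, and each goat gave 1 library of whole mammary tissue. Late lactation (LL) was sampled in 3 goats at 240 days postpartum, the dry period (DP) in 3 other goats at 300 days postpartum, and late gestation (LG) in 3 further goats at 140 days after mating. The labels name no treatment, and the stages were compared between different animals, not within an animal.

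Death receptors carry a signal for cell death from the cell surface. TNFSF10 encodes TRAIL, a membrane ligand that triggers apoptosis through its own receptors, FAS encodes the receptor of FAS ligand, and TNFRSF1A encodes the main receptor of tumour necrosis factor. TRADD is the adaptor that binds the occupied TNFRSF1A, and TRAF2 is the ubiquitin ligase adaptor recruited with it, through which the receptor signals to NF-kB and JNK rather than to death. CASP8 is the initiator protease activated at death receptor complexes, CASP9 is the initiator activated in the apoptosome after cytochrome c leaves mitochondria, and CASP6 is an effector protease best known for cleaving lamin A. Caspases are made as inactive precursors, so a transcript level is not a measure of caspase activity. In the mammary gland, apoptosis removes secretory epithelium when milk removal stops, and death receptor signalling is among the routes described for that process.

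Expression is given in FPKM (fragments normalised for gene length and sequencing depth), as deposited, and in FPKM divided by a median-ratio factor of the library, here called scaled FPKM. The table names neither its unit nor its genome build, so the values were read as FPKM and positions are printed as the table gives them. The 2 scales differ a great deal here, because the factors of the LL libraries were 0.498 to 0.605, those of the DP libraries 1.44 to 1.53 and those of the LG libraries 1.20 to 1.31. On the deposited scale the median gene lay 1.09 higher in DP than in LL and 0.93 higher in LG than in LL, in log2(FPKM + 1). The median gene moved by 0.18 on that scale between DP and LG. Fold changes below are differences of mean log2(scaled FPKM + 1) with the standard error (SE) from limma, and a gene was called when its adjusted p was under 0.05 and its log2 fold change was at least 1 in size. By that rule 22.6% of all genes tested were called between DP and LL, 17.3% between LG and LL and 13.3% between LG and DP. The comparisons of DP and of LG with LL share the 3 LL libraries. In whole tissue, fewer cells of a type and less RNA per cell cannot be told apart.

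The 3 caspase genes were lower in DP and in LG than in LL, and TRAF2 was higher in both. Of the 8 genes, 1 was called higher and 3 lower in DP than in LL, against 13.8% and 8.79% of all genes tested. The counts in LG against LL were also 1 higher and 3 lower, against 10.7% and 6.61% of all genes. In both comparisons the 3 lower genes were the caspase genes, which lie in a second part of the table, described below. There 51.8% of the genes tested were called lower in DP and 40.2% in LG than in LL. The other 5 genes lie in the first part and were not called lower, beside 4.30% and 3.12% of that part. None of the 8 was called between LG and DP, where 1 of them, TNFRSF1A, had an adjusted p under 0.05, as did 34.8% of all genes tested. Over the 8 genes the median log2 fold change was 0.0026 for DP against LL, -0.25 for LG against LL and 0.02 for LG against DP, beside 0.0041, 0.02 and 0.0083 for all genes tested.

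On the deposited scale, 5 of the 8 genes were higher in every DP than in every LL library and 3 were lower, against 84.0% and 3.88% of all genes tested. For LG and LL these counts were 4 higher and 3 lower, against 76.1% and 3.87%. In both comparisons the 3 lower genes were the caspase genes of the second part of the table. None was higher and 3 were lower in every LG than in every DP library, against 15.5% and 34.2%. On the scaled values 2 genes were higher and 4 lower without overlap in DP than in LL, against 32.5% and 33.4% of all genes. LG stood above LL for 1 gene and below it for 4, against 31.0% and 30.2%. It stood above DP for none and below it for 1, against 25.1% and 22.8%. The adjusted p alone passed for 6 genes in DP against LL, where 56.9% of all genes passed, and for 5 in LG against LL, where 50.2% did.

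**Figure D1:**
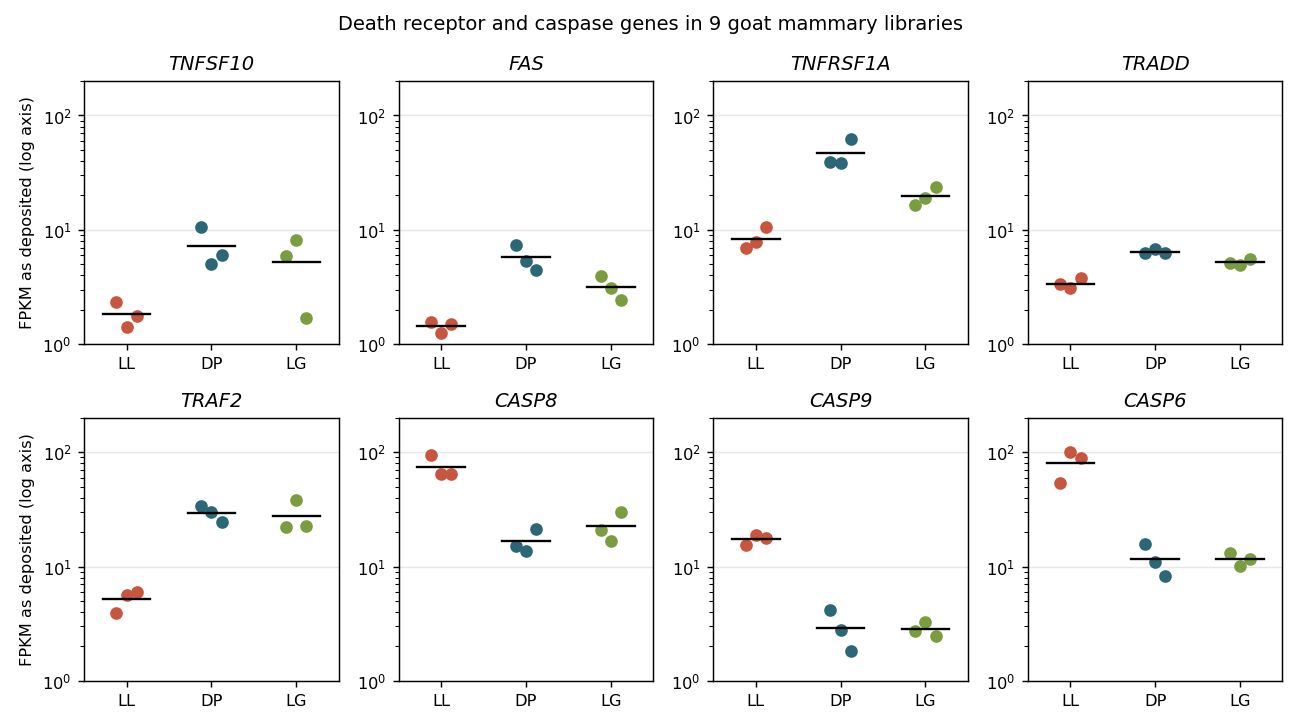
Each point is 1 library, with FPKM as deposited on a log axis, for the 8 genes in LL, DP and LG (3 goats each), and the bar is the mean of the stage. The 3 caspase genes sit higher in every LL library than in any DP or LG library, FAS, TNFRSF1A, TRADD and TRAF2 sit lower in every LL library than in any DP or LG library, and TNFSF10 does so for DP but has 1 LG library within the LL range.

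TNFSF10, the only ligand among the 8, lies on chromosome 1 at 94545760 to 94564501 on the plus strand. Its FPKM were 2.34, 1.42 and 1.75 in the LL goats, 10.68, 5.05 and 6.01 in the DP goats, and 5.96, 8.08 and 1.69 in the LG goats. The LG libraries were the most spread of any stage, and the third LG goat lay within the LL range. After scaling, TNFSF10 ran from 2.57 to 4.70 among LL goats, from 3.50 to 6.99 among DP goats and from 1.29 to 6.55 among LG goats, so that all 3 stages overlapped. The log2 fold change was 0.41 (SE 0.41, adjusted p = 0.408) for DP against LL and 0.13 (SE 0.41, adjusted p = 0.817) for LG against LL. The 95% interval of the DP against LL value ran from -0.51 to 1.33, which includes more than a doubling as well as no change. TNFSF10 had the largest SE of the 8 genes. Without scaling it was called in DP against LL, at 1.49 (adjusted p = 0.00554).

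FAS, on chromosome 26 at 40641773 to 40676692 on the minus strand, was a low gene in lactating tissue. It had 1.56, 1.26 and 1.49 FPKM in the LL libraries. DP gave 7.34, 5.37 and 4.48 FPKM and LG gave 3.91, 3.08 and 2.42 FPKM. The deposited values of the 3 stages did not overlap, in the order LL, LG, DP, but 84.0% of all genes tested were likewise higher in every DP than in every LL library on that scale. The scaled values were 3.13, 2.28 and 2.46 in the LL goats, 4.80, 3.73 and 3.11 in the DP goats, and 3.27, 2.50 and 1.84 in the LG goats, with overlap between each pair of stages. FAS was 0.42 higher in DP than in LL on the log2 scale (SE 0.18, adjusted p = 0.0714) and 0.47 lower in LG than in DP (SE 0.18, adjusted p = 0.0711), and neither passed the threshold. Without scaling FAS was called in DP against LL, at 1.45 (adjusted p = 3.88e-05), and with scaling to the sum of all but the 10 highest genes it stood at 0.97. In LG against LL the log2 fold change was -0.05, with a 95% interval from -0.46 to 0.36.

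TNFRSF1A, on chromosome 5 at 102943587 to 102956345 on the plus strand, was the only one of the 8 whose scaled DP values stood above both other stages without overlap. Its FPKM were 6.87, 7.75 and 10.5 in the LL goats, 39.0, 38.58 and 61.96 in the DP goats, and 16.37, 19.02 and 23.85 in the LG goats. Scaled, the DP libraries held 25.5, 26.8 and 43.0 and stood above the LL range of 13.8 to 17.3 and the LG range of 13.7 to 18.2. TNFRSF1A was 0.998 higher in DP than in LL on the log2 scale (SE 0.21, adjusted p = 0.00325) and 0.94 lower in LG than in DP (SE 0.21, adjusted p = 0.00777). Both values passed the adjusted p and fell just short of the fold threshold. The DP against LL value passed it with a pseudocount of 0.1 (1.04) and without the third LL goat (1.08) or the first (1.13) or second (1.09) DP goat, and the LG against DP value passed it without the first (-1.07) or second (-1.03) DP goat or the third LG goat (-1.04). LG differed from LL by 0.06 (95% interval -0.41 to 0.53, adjusted p = 0.833). Without scaling TNFRSF1A was called higher in LG than in LL, at 1.15 (adjusted p = 0.00116). The receptor gene overlaps PLEKHG6 by 258 bases and LOC102178050 by 240 bases on the opposite strand, and the library kit does not keep strand, so reads from those bases cannot be assigned to either gene. PLEKHG6 had 0.14 to 0.29 FPKM in LL libraries, 0.97 to 2.19 in DP libraries and 0.26 to 0.49 in LG libraries.

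TRADD, on chromosome 18 at 36063928 to 36071418 on the minus strand, varied little among the goats of a stage. LL gave 3.34, 3.07 and 3.76 FPKM, DP gave 6.25, 6.76 and 6.33 FPKM, and LG gave 5.17, 4.96 and 5.56 FPKM. The direction of its change depends on the scale. On the deposited values TRADD was higher in every DP library than in any LL library, with a log2 difference of 0.76 beside 1.09 for the median gene. After scaling it was lower, at 4.09 to 4.69 in DP and 4.02 to 4.32 in LG against 5.55 to 6.71 in LL, with no overlap. The log2 fold change was -0.41 (SE 0.11, adjusted p = 0.0103) in DP and -0.46 (SE 0.11, adjusted p = 0.00631) in LG against LL, under the fold threshold, and it turned to 0.76 and 0.51 without scaling and, for DP, to 0.19 with scaling to the sum of all but the 10 highest genes. TRADD shares 3139 bases with FBXL8 on the opposite strand, which had 0.10 to 1.12 FPKM in the 9 libraries.

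TRAF2 is placed on an unassigned scaffold at 10843 to 31024 on the minus strand and was the only one of the 8 called higher in DP and in LG than in LL. Its FPKM were 3.9, 5.62 and 5.97 in the LL goats, 34.04, 29.86 and 24.59 in the DP goats, and 22.16, 38.17 and 22.56 in the LG goats. Scaled FPKM were 7.84 to 10.2 in LL libraries, 17.1 to 22.3 in DP libraries and 17.2 to 30.9 in LG libraries, and every DP and LG library stood above every LL library. The log2 fold change was 1.03 (SE 0.22, adjusted p = 0.00349) in DP against LL and 1.13 (SE 0.22, adjusted p = 0.00248) in LG against LL. Both lie close to the fold threshold. The DP call was lost without the first LL goat (0.92) and without the first DP goat (0.95), and the LG call was lost without the second LG goat (0.88). LG and DP overlapped, with a log2 fold change of 0.10 and a 95% interval from -0.39 to 0.60.

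CASP8, on chromosome 2 at 46076358 to 46101331 on the minus strand, was among the higher genes of lactating tissue. LL gave 94.02, 63.88 and 64.08 FPKM, DP gave 15.1, 13.59 and 21.39 FPKM, and LG gave 20.75, 16.86 and 29.92 FPKM. No DP or LG library reached the LL range, although the deposited values of most genes were lower in LL. In the second part of the table, where CASP8 lies, this was less so. There 549 of 1320 genes with a mean of at least 5 FPKM were lower in DP than in LL as deposited. On the deposited scale the LL mean was 4.43-fold the DP mean and 3.29-fold the LG mean. After scaling, CASP8 fell by 3.45 in DP (SE 0.27, adjusted p = 1.13e-05) and by 2.84 in LG (SE 0.27, adjusted p = 4.44e-05) against LL on the log2 scale. LG stood 0.61 above DP (95% interval 0.0012 to 1.22, adjusted p = 0.109), which did not pass.

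CASP9, the initiator of the mitochondrial route, lies on chromosome 16 at 50490505 to 50514637 on the plus strand. Its FPKM were 15.5, 18.89 and 17.87 in the LL goats, 4.15, 2.8 and 1.82 in the DP goats, and 2.75, 3.3 and 2.48 in the LG goats. The LL goats lay close together and far above all others. The LL mean was 5.96-fold the DP mean as deposited. Scaled, CASP9 fell by 3.48 in DP (SE 0.18, adjusted p = 1.44e-06) and by 3.31 in LG (SE 0.18, adjusted p = 2.62e-06) on the log2 scale, and LG differed from DP by 0.17 (95% interval -0.24 to 0.57, adjusted p = 0.505). It overlaps LOC102174414 over 2592 bases on the opposite strand, a gene listed at 1.14 to 2.13 FPKM, beside 1.82 to 4.15 FPKM for CASP9 in DP and LG.

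CASP6, the only effector caspase of the 8, lies on chromosome 6 at 15999510 to 16019612 on the plus strand. LL gave 53.5, 99.44 and 88.91 FPKM, DP gave 15.64, 11.05 and 8.31 FPKM, and LG gave 13.22, 10.02 and 11.58 FPKM. Its level in LL was above that of 98.0% of the genes tested, and in DP above that of 69.8%. CASP9 moved over more of that order, from 92.3% in LL to 21.9% in DP. CASP6 had the largest fold change of the 8 genes, with a fall of 4.03 on the log2 scale in DP (SE 0.24, adjusted p = 2.94e-06) and of 3.80 in LG (SE 0.24, adjusted p = 4.83e-06) against LL. DP and LG overlapped (0.24, 95% interval -0.30 to 0.77).

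**Figure D2:**
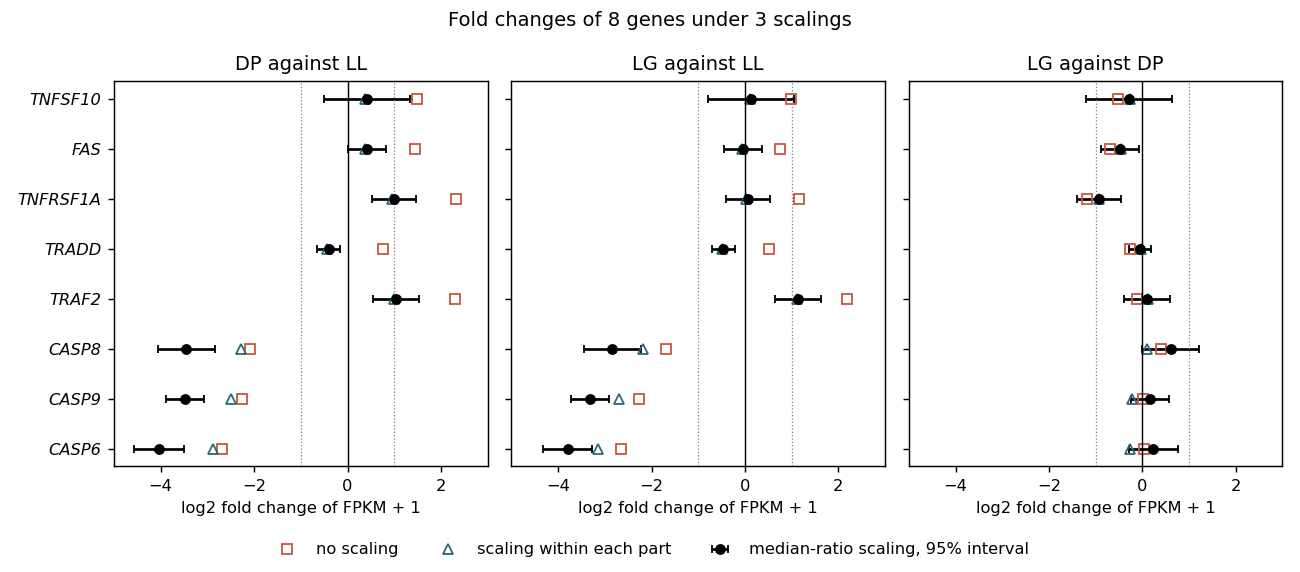
Log2 fold changes of FPKM + 1 for the 8 genes in the 3 comparisons, as filled points with 95% intervals under median-ratio scaling, squares without scaling and triangles with scaling within each part of the table; dotted lines mark a change of 1. The caspase genes lie below -1 against LL under all 3, TRADD lies below 0 with both scalings and above 0 without in the comparisons with LL, and all 8 genes lie within 1.5 of 0 in LG against DP.

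The caspase values differ from the others in their place in the table. The table holds 22112 rows in descending order of the LG mean, with 1 rise of more than 0.01 FPKM among 22111 neighbouring rows, followed by 1387 rows of which 1375 stand in alphabetical order and 12 follow. CASP6, CASP8 and CASP9 lie in the second part, and the other 5 genes lie in the first. Among the genes tested, 51.8% of the second part but 4.30% of the first part were called lower in DP than in LL, and for LG against LL the shares were 40.2% and 3.12%. The second part thus held 55.7% of all genes called lower in DP. The median log2 fold change in DP against LL was -1.11 in the second part and 0.05 in the first. On the deposited scale, 549 of the 1320 second-part genes with a mean of at least 5 FPKM were lower in DP than in LL, against 84 of 6110 in the first part. Whether the values of the 2 parts were made in the same way is not stated, so a difference between stages and a difference between the parts of the table cannot be told apart for the caspase genes.

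The fall of the 3 caspase genes was smaller but still called when each part was scaled by its own factors, an alternative added after the parts were seen. The log2 fold changes in DP against LL were then -2.88 for CASP6 (adjusted p = 1.83e-05), -2.28 for CASP8 and -2.49 for CASP9, and in LG against LL -3.14, -2.18 and -2.70. Without any scaling they were -2.68, -2.08 and -2.27 in DP against LL. Within the second part, 5.77% of the genes had a lower fold change than CASP6 in DP against LL, 10.6% a lower one than CASP8 and 10.1% a lower one than CASP9. The corresponding shares of all genes tested were 0.544%, 1.00% and 0.952%. TRAF2, a gene of the first part, moved to 0.985 in DP against LL under this scaling and was no longer called.

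**Figure D3:**
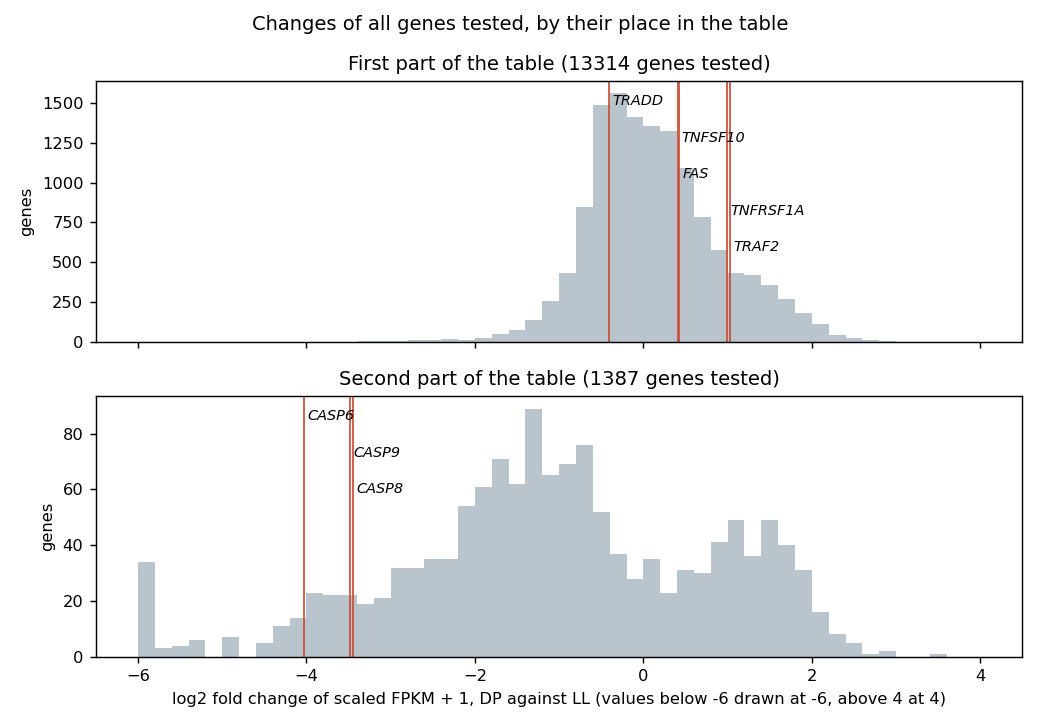
Histograms of the log2 fold change in DP against LL (scaled FPKM + 1) for the genes tested in the first part (13314 genes) and the second part (1387 genes) of the table, with the 8 genes as vertical lines. The first part centres near 0 with TRADD, TNFSF10, FAS, TNFRSF1A and TRAF2 in its body, and the second part spreads to the left with the 3 caspase genes in its lower tail.

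Ratios of a pair of genes within a library do not depend on the scaling of that library, and they were compared for 3 pairs with the same place in the table over 9 tests in all. The ratio of TRADD to TRAF2, the adaptors of the TNFRSF1A complex, was 0.546, 0.630 and 0.856 in LL in ascending order, and 0.184 to 0.257 in the DP and 0.130 to 0.246 in the LG libraries. Every LL library stood above every other library. The mean log2 ratio was lower by 1.59 in DP and by 1.77 in LG than in LL (exact permutation test, two-sided, p = 0.1 in both cases, adjusted p = 0.45), and 0.1 is the smallest p that 3 against 3 goats can give. The ratio of CASP8 to CASP9, the initiators of the extrinsic and intrinsic routes, ran from 3.38 to 6.07 in LL libraries, 3.64 to 11.8 in DP libraries and 5.11 to 12.1 in LG libraries, with overlap of all stages. The ratio of FAS to TNFRSF1A also overlapped throughout, at 0.142 to 0.227 in LL libraries, 0.0723 to 0.188 in DP libraries and 0.101 to 0.239 in LG libraries. After adjustment no ratio passed the threshold, which 3 goats a stage could not reach.

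**Figure D4:**
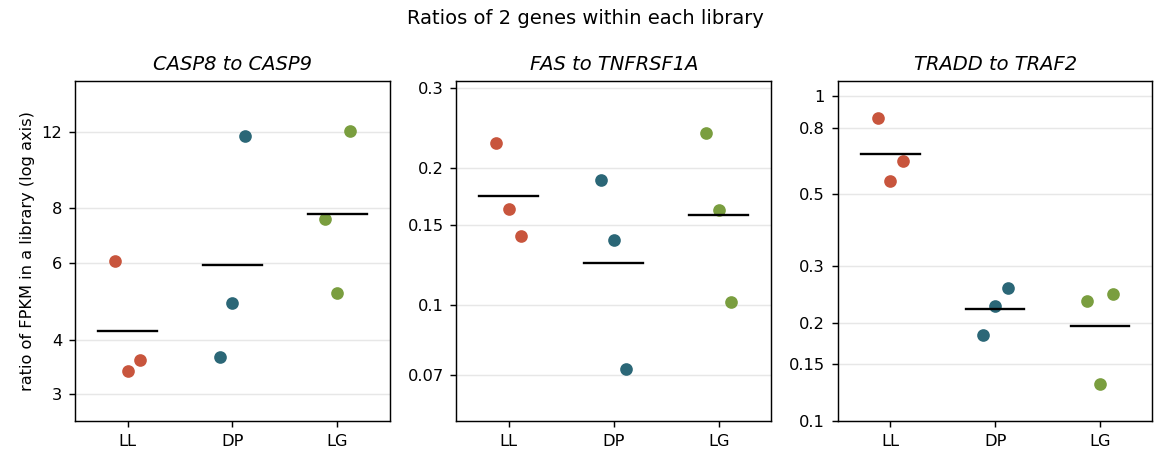
Ratios of FPKM of CASP8 to CASP9, FAS to TNFRSF1A and TRADD to TRAF2 in each library (points, log axis) with the geometric mean of each stage (bar), for 3 goats a stage. TRADD to TRAF2 is above 0.5 in the 3 LL libraries and below 0.3 in all others, and the stages overlap for the other ratios.

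Other genes of the pathway were taken from a list of 55 symbols, also chosen with earlier results of these data known. Of these, 47 were in the table and 43 passed the filter. In DP against LL, 6 of the 43 were called higher and 2 lower, with a median log2 fold change of 0.32, beside 13.8% and 8.79% of all genes tested. LG against LL gave 2 higher and 3 lower with a median of 0.07, beside 10.7% and 6.61% of all genes tested. LG against DP gave none higher, beside 6.37% of all genes, and 3 lower, beside 6.88%.

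CASP2, a caspase of the stress response, lies in the first part of the table, unlike CASP6, CASP8 and CASP9, and was also called lower in DP and in LG than in LL. It had 6.73 ± 1.44 FPKM in the LL goats, 4.32 ± 0.45 in the DP goats and 2.85 ± 0.15 in the LG goats (SD, n = 3). Its libraries did not overlap between LL and the other stages as deposited, and it fell by 1.73 in DP and 1.99 in LG after scaling (adjusted p = 1.22e-05 and 8.39e-06). Only 0.714% of the first part had a lower fold change than CASP2 in DP against LL. Without scaling CASP2 fell by 0.53 in DP and by 0.99 in LG, below the fold threshold.

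Of 4 measured substrates of effector caspases and the nuclease gene DFFB, 3 were called higher in DP and 2 in LG than in LL and none lower, beside 13.8% and 10.7% of all genes called higher. DFFA, the inhibitor of the nuclease that effector caspases cleave, was at 0.66 in DP and 0.57 in LG, and PARP1, a repair enzyme that they cleave, was at 0.32 and 0.69, so neither was called. LMNB1, which encodes lamin B1, was near 0 in LL at 0.15 ± 0.04 FPKM and reached 5.10 ± 1.35 in DP and 8.92 ± 1.40 in LG (SD, n = 3), a rise of 1.80 and 2.68 on the log2 scale. DFFB, which is no substrate itself but is released when DFFA is cleaved, had 0.09 ± 0.01 FPKM in LL and 3.74 ± 0.15 in DP and rose by 1.60 in DP and 1.61 in LG. LMNA, which encodes the lamin cleaved by CASP6, rose by 1.36 in DP (SE 0.40, adjusted p = 0.0163), with DP values from 56.3 to 200.2 FPKM, and lies in the second part of the table. In LG against LL it was at 0.36 (adjusted p = 0.473) and was not called.

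Among the other receptors, TNFRSF1B, the second receptor of tumour necrosis factor, followed TNFRSF1A with a peak in DP. It had 4.61 ± 0.99 FPKM in the LL goats, 26.7 ± 3.07 in the DP goats and 6.38 ± 1.03 in the LG goats (SD, n = 3). It was called higher in DP than in LL (1.05) and lower in LG than in DP (-1.66). TNFRSF1B lies in the second part of the table, and its DP against LL value was 2.17 with scaling within each part. TNFRSF21, which encodes death receptor 6, was called lower in DP than in LL (-1.04), a value that turned to 0.34 without scaling. Of the adaptors, TRAF5 was called higher in DP, from 0.09 FPKM in LL to 2.52 in DP. None of the 3 ligand genes tested, TNF, FASLG and TNFSF12, was called in any comparison, beside 22.6%, 17.3% and 13.3% of all genes tested. In DP against LL all 3 passed the adjusted p, as did 56.9% of all genes. The values were -0.71 for TNF (adjusted p = 0.0141), 0.62 for FASLG (0.0235) and 0.79 for TNFSF12 (0.00416). TNF turned to 0.27 without scaling. In LG against DP, FASLG and TNFSF12 were each at -0.98 (adjusted p = 0.00481 and 0.00246).

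RIPK3, the kinase that drives necroptosis, was called higher in DP than in LL and lower in LG than in DP. It went from 0.19 ± 0.04 FPKM in the LL goats to 7.19 ± 1.61 in the DP goats and 2.04 ± 0.44 in the LG goats (SD, n = 3), a rise of 2.11 in DP (SE 0.15, adjusted p = 7.87e-06) followed by a fall of 1.15 from DP to LG. MLKL, the effector that RIPK3 phosphorylates, differed by -0.44 between DP and LL on the log2 scale (adjusted p = 0.0212), under the fold threshold, and this value turned to 0.50 without scaling and 0.04 with scaling to the sum of all but the 10 highest genes. TNFAIP3, an inhibitor of NF-kB signalling, was lower in LG than in DP by 1.20. CFLAR, the inhibitor of CASP8 activation, and NFKBIA, the inhibitor of NF-kB, were called lower in LG than in LL, at -1.49 and -1.91, and both lie in the second part of the table. CFLAR was -0.37 and NFKBIA -0.77 without scaling, below the fold threshold. With scaling within each part CFLAR was at -0.84 and lost its call, and NFKBIA was at -1.26.

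**Figure D5:**
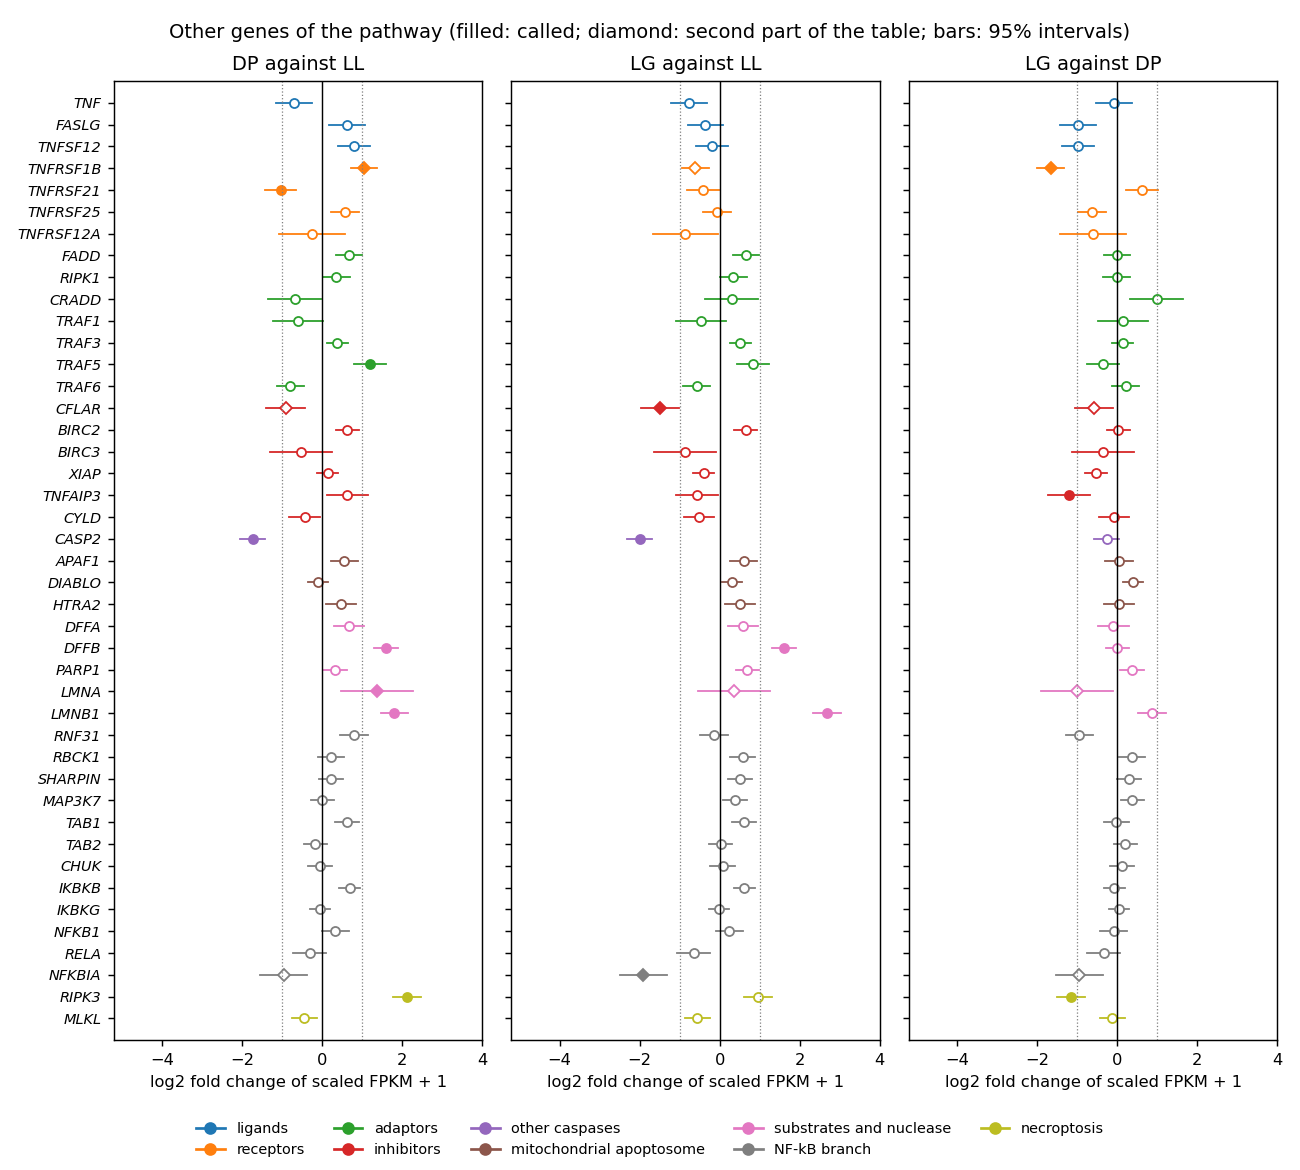
Log2 fold changes (scaled FPKM + 1) with 95% intervals for 43 other genes of the pathway in the 3 comparisons, coloured by list, with filled symbols for called genes and diamonds for genes of the second part of the table. CASP2 lies farthest to the left in both comparisons with LL, and LMNB1, DFFB and RIPK3 lie farthest to the right in DP against LL.

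Markers of the cells of the gland moved with the stages too. The luminal epithelial list had 6 of 6 markers in the table and none at 0 throughout. It summed to 819 to 1106 scaled FPKM across LL libraries, 269 to 522 across DP libraries and 733 to 891 across LG libraries. Of its 6 markers, 1 was called lower in DP. Without scaling, the luminal sums of LL libraries (496 to 612 FPKM) fell within the DP range (410 to 753 FPKM). Every LG library (904 to 1170 FPKM) then lay above both. The order of the stages for this list thus depended on the scaling. The sums of the other lists are given in scaled FPKM. The leukocyte list summed to 59.8 to 81.9 across LL libraries, 110 to 232 across DP libraries and 52.6 to 82.0 across LG libraries, with 4 of 6 called higher in DP than in LL, beside 13.8% of all genes tested. The macrophage list summed to 69.5 to 93.7 across LL libraries, 169.5 to 195.9 across DP libraries and 64.4 to 71.5 across LG libraries, with 4 of 7 called higher in DP and 7 of 7 lower in LG than in DP, the latter beside 6.88% of all genes. T and NK cell markers were called higher in DP for 5 of 6 and fibroblast markers for 4 of 5, the latter summing to 176 to 270 in LL and 429 to 1744 in DP. The B and plasma cell list was highest in LL by its scaled sums. These were 189 to 834 across LL libraries, 38.3 to 136 across DP libraries and 10.7 to 22.6 across LG libraries. Its mean log2(scaled FPKM + 1) overlapped, at 1.74 to 2.35 in LL and 1.24 to 3.08 in DP libraries. Its sums as deposited overlapped too, at 114.72 to 415.21 FPKM in LL and 55.15 to 196.05 FPKM in DP libraries. Of its 5 genes only JCHAIN, in the second part of the table, passed the filter, and it was called lower in DP (-2.37) and in LG (-4.70) than in LL, the direction of the caspase genes. Myoepithelial markers summed to 180 to 234 across LL libraries, 133 to 451 across DP libraries and 223 to 300.3 across LG libraries. Endothelial markers ran from 58.1 to 160 over all libraries and adipocyte markers from 1.14 to 20.4. The highest adipocyte sum was that of 1 DP library, beside a DP median of 3.00. None of these 3 lists had a gene called in DP against LL, but only 2 of the 4 adipocyte genes were tested. TNFRSF1A, TNFRSF1B and RIPK3 were highest in DP, where the scaled sums of the leukocyte and macrophage lists were highest. The median scaled sums of the T and NK cell, fibroblast, myoepithelial, endothelial and adipocyte lists also peaked in DP. For T and NK cells the medians were 28.8 (DP), 19.6 (LG) and 6.57 (LL), and for fibroblasts 729 (DP), 542 (LG) and 190 (LL). The DP sums of these other lists overlapped those of LG or LL, unlike those of the leukocyte and macrophage lists. The caspase genes were highest in LL, where the scaled sums of the B and plasma cell list and of the luminal list were highest. For the luminal list the scaled sums of LL and LG overlapped, and the sums as deposited were highest in LG. For the B and plasma cell list the sums of LL and DP overlapped as deposited. The part of any of these cells in the values was not tested.

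For each of the 8 genes, the genes with the most similar pattern over the 9 libraries are given as a description only. How much of the likeness comes from differences between the stages was not tested. Pearson's r of log2 scaled values was 0.961 between FAS and POLI, 0.953 between FAS and STEAP4 and 0.991 between TNFRSF1A and both FAM160B1 and PTPN9. TNFSF10 had the weakest partners, SPINT1 at 0.890 and CWH43 at 0.868. TRADD was most like LCMT2 (0.987) and SMKR1 (0.984), and TRAF2 was most like STARD7 (0.991) and PPP2R3B (0.976). CASP6 was most like ING3 (0.996), a gene of the first part of the table, and then CASP9 (0.993), the only one of the 8 that was named for another of them. CASP8 was most like CMTM6 (0.991) and BCAP31 (0.990), and CASP9 was most like ST6GALNAC2 (0.996) and C9 (0.994), all 4 in the second part of the table.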

How the data were processed

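Total RNA of 9 mammary gland samples was made into libraries with a TruSeq v2 kit, which does not keep strand. The submitters' processing notes name FastQC, Trimmomatic, HISAT2, SAMtools and HTSeq, and the paper's methods add transcript assembly. The deposited table holds 1 column per library, names neither unit nor build, and was read as gene-level FPKM made by the authors, from its decimals and differing column sums (601250 to 1157015). Coordinates are as deposited. FPKM hold no read counts, so no counting error is given. The 23465 gene identifiers found in the RefSeq table (ARS1.2) include all 8 genes.

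Values were divided by median-ratio factors, a pseudocount of 1 was added, and genes were kept where 3 or more libraries had 0.5 FPKM or more. The test was limma 3.58.1 under R 4.3.3 (mean-variance trend, all 9 libraries, no covariates) with Benjamini-Hochberg adjustment over all genes. The procedure was tested on simulated data. Ratios were tested by exact permutation (scipy 1.17.1). The 8 genes were named whatever their result, other pathway genes where called, with values for at most the 4 largest per direction and comparison, and the 2 most correlated genes farther than 8 genes along the chromosome. Genes whose values followed a neighbouring gene within 1% of their range numbered 1510, with none of the 8 among them. Some genes of the pathway are not reported here and stand outside its counts, whatever their result. Members and lists were chosen with earlier results of these data known. Alternatives were other scalings, pseudocount 0.1, other filters, a replicate block and leaving out each library.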

Additional observations from a re-analysis of the deposited data

How the results depend on the processing

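The 24 log2 fold changes of the 8 genes kept their direction and their side of the threshold in 457 of 504 alternatives, and the 3 caspase genes were called lower in DP and LG against LL in all of them. Several alternatives could change only the call, because they leave the log2 fold change as it is. These were the other filters, the replicate block, no mean-variance trend, a fit of only the compared stages and the adjusted p alone. The number of the 8 genes called went from 4 to 7 without scaling in DP against LL, where FAS, TNFSF10 and TNFRSF1A were added, and from 0 to 1 in LG against DP, where the gene was TNFRSF1A, without scaling, with quantile normalization, with scaling to the sum without the 10 highest genes and with the adjusted p alone. In LG against LL the number went from 4 to 5 without scaling, where TNFRSF1A was added. Leaving out 1 library gave 3 to 5, 3 to 4 and 0 to 1 genes in the 3 comparisons, the last reaching 1 without the first or second DP goat or the third LG goat. Of the other pathway genes, 8 called in DP against LL became 30 without scaling, 18 with the sum and 27 with the adjusted p alone, and 5 in LG against LL became 23 without scaling, 8 with a pseudocount of 0.1 and 27 with the adjusted p alone. In LG against DP the count of 3 became 8 without scaling, 7 with quantile normalization, 9 with the sum, 9 with a pseudocount of 0.1, 6 with scaling within each part of the table, 14 with the adjusted p alone and 3 to 7 without 1 library. It reached 7 without the first DP goat and without the second LG goat, and 5 without any 1 LL goat or the third LG goat.

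Some directions turned. FAS in LG against LL became 0.75 without scaling, 0.15 with quantile normalization and 0.12 with the sum. TRADD, whose main values passed the adjusted p, became 0.76 without scaling and 0.19 with the sum in DP against LL, and 0.51 without scaling in LG against LL. In LG against DP, TRAF2 became -0.12, -0.13 and -0.35 under no scaling, quantile normalization and the sum, CASP6 became -0.19 with the sum and -0.25 with scaling within each part, and CASP9 -0.16 and -0.21. Without 1 library, FAS ran from -0.19 to 0.10, TNFRSF1A from -0.041 to 0.15 and TNFSF10 from -0.21 to 0.64 in LG against LL, and TNFSF10 from -0.62 to 0.23, TRAF2 from -0.15 to 0.25 and CASP9 from -0.012 to 0.34 in LG against DP. The log2 ratio of FAS to TNFRSF1A ran from -0.44 to 0.18 in LG against LL and from -0.037 to 0.67 in LG against DP, and that of TRADD to TRAF2 from -0.34 to 0.12 in LG against DP. TNFRSF1A passed the fold threshold in DP against LL at 1.33 with quantile normalization and 1.68 with the sum. The cause of these changes was not tested.

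Same-numbered libraries of different stages had correlations of their deviations from -0.11 to 0.20, and 6 of 9 libraries correlated best with their own number. The numbers were not taken to pair goats, because the stages came from different goats. What same-numbered libraries share was not tested. With the replicate number as a block, 4, 4 and 0 of the 8 genes were called in the 3 comparisons. FAS then passed the adjusted p in DP against LL (0.0199) and in LG against DP (0.0201), still under the fold threshold.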
